A study of Homo sapiens with 6 samples.

Results

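The mitochondrially encoded genes were described in MV4-11 cells with and without an shRNA against ATGL. Members were taken by name: every row of the count table whose Ensembl identifier maps to a symbol that starts with MT-. This gave 37 of 61806 genes, with 13 mRNA genes, 2 rRNA genes and 22 tRNA genes, and each had at least 10 counts in every library. MV4-11 is a human acute myeloid leukemia line that carries the FLT3-ITD mutation, and all 6 libraries come from it. The 3 shNC libraries carry a control shRNA, and the other 3 are labelled as carrying an shRNA against ATGL (gene symbol PNPLA2), the lipase that starts the breakdown of stored triglyceride. The study's methods deliver shRNAs by lentivirus with puromycin selection, and the labels do not say which shRNA sequence a library carries, nor whether the replicates were separate cultures. P-values therefore measure the spread between these libraries, which may be technical. No dose, time or further treatment is given for either group.

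The mitochondrial genome is a small circle present in many copies per cell, and both of its strands are transcribed into long precursors that are then cut into single RNAs. In the tRNA punctuation model, tRNAs that lie between the other genes mark where the precursor is cut, which releases the mRNAs and rRNAs. The mRNAs encode core subunits of respiratory complexes I, III, IV and V, the rRNAs build the mitochondrial ribosome, and the tRNAs decode these mRNAs. All other proteins needed to copy, transcribe and translate this genome are encoded in the nucleus.

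Coordinates and sequences are from GRCh38 with the GENCODE 29 annotation. In that annotation 28 of the genes lie on the plus strand of chrM, and MT-ND6 and 8 tRNA genes lie on the minus strand. Many neighbouring genes touch or overlap and others are separated by short gaps, so a read can span more than 1 of them. The stretch from MT-TW to MT-TY is shown because it holds the tRNA with the lowest level per length beside those with the highest. Each sequence is written 5′ to 3′ on its own strand, and the capital in MT-TC and MT-TY is the 1 base that these neighbours share, at position 5826.
MT-TW, chrM:5512-5579, plus strand: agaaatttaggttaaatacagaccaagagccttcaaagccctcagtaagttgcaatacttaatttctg
MT-TA, chrM:5587-5655, minus strand: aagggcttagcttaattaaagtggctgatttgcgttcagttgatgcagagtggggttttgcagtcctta
MT-TN, chrM:5657-5729, minus strand: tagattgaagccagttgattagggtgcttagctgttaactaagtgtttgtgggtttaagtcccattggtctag
MT-TC, chrM:5761-5826, minus strand: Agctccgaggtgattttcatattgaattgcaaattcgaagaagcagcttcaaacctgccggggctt
MT-TY, chrM:5826-5891, minus strand: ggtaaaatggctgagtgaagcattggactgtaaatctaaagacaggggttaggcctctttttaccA

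MT-ATP8 and MT-ATP6, which encode a pair of subunits of ATP synthase (complex V), share 46 bases of the same strand, from 8527 to 8572. MT-ATP8 is shown because its counts cannot be separated from those of MT-ATP6 there, and the capitals mark the shared bases.
MT-ATP8, chrM:8366-8572, plus strand: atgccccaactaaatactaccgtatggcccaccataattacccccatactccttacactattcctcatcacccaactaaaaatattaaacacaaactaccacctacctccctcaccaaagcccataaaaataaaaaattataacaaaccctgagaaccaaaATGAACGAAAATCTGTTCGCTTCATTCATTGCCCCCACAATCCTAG
The other shared stretches are 7 bases between MT-ND4L and MT-ND4, 3 bases between MT-TI and MT-TQ on opposite strands, and 1 base between MT-ATP6 and MT-CO3. The strand setting of the counting is not given in the sources used here, so reads from a gene and from the opposite strand of the same stretch cannot be told apart.

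The libraries held between 59674064 and 74808280 counts, and between 24360 and 25959 genes had a count. Levels of a gene are given as CPM, its counts per 1000000 counts after TMM scaling of the library size. For PNPLA2 itself the CPM values were 101.1, 97.0 and 107.1 in shNC 1 to 3, beside 102.4, 98.1 and 103.7 in shATGL 1 to 3. The groups overlapped, and its log2 fold change was -0.01 (SE 0.06, 95% confidence interval -0.15 to 0.14, adjusted p = 0.979, edgeR's quasi-likelihood test), so the targeted transcript was not measurably lower in the libraries labelled shATGL and every direction below is that of the labels. Of 10 myeloid leukemia markers, all were detected, with MPO and MEIS1 the lowest. HBB, GATA1, PPBP, EPCAM and KRT18, markers of other cell types, had 0 counts in every library. Library shATGL 3 stood apart from shATGL 1 and 2 for most mitochondrial genes, and values without it are given beside those that it changes. As it was singled out on these same genes, adjusted p-values without it describe that choice and are no independent test.

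Mitochondrial genes together took 7.54%, 7.41% and 8.17% of the counts in shNC 1 to 3 and 6.34%, 6.51% and 7.66% in shATGL 1 to 3. The means were 7.71% ± 0.406 (SD, n = 3) and 6.84% ± 0.720 (SD, n = 3), and the groups overlapped because shATGL 3 lay above shNC 1 and 2. At this depth the 95% Wilson interval of such a share reached at most 0.0067 percentage points to either side. Intervals of this kind cover counting error only, since reads amplified without molecular identifiers are not independent molecules. In bulk RNA, fewer mitochondrial transcripts per cell and a larger amount of other RNA per cell cannot be told apart.

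The mRNAs made up most of this share. They took 6.79%, 6.64% and 7.37% of the counts in shNC 1 to 3 and 5.68%, 5.80% and 6.92% in shATGL 1 to 3. Their mean was 6.93% ± 0.382 (SD, n = 3) in shNC and 6.13% ± 0.684 (SD, n = 3) in shATGL. The libraries shATGL 1 and 2 lay below every shNC library, and shATGL 3 lay within the shNC range. The difference of the means was -0.80 percentage points with all libraries and -1.19 without shATGL 3.

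The rRNAs took 0.634%, 0.650% and 0.677% of the counts in shNC 1 to 3, against 0.558%, 0.602% and 0.613% in shATGL 1 to 3. Of the 3 classes they alone had groups that did not overlap, at 0.653% ± 0.0217 (SD, n = 3) and 0.591% ± 0.0290 (SD, n = 3). The tRNAs took 0.123%, 0.121% and 0.131% in shNC 1 to 3 and 0.103%, 0.105% and 0.129% in shATGL 1 to 3. As with the mRNAs, shATGL 3 fell within the shNC range and the other shATGL libraries fell below it. The difference of the tRNA means was -0.0127 percentage points with all libraries and -0.021 without shATGL 3.

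Among the mitochondrial counts the balance of the classes was nearly the same in all libraries. The mRNAs held between 89.1% and 90.3% of them, the rRNAs between 8.0% and 9.24%, and the tRNAs between 1.61% and 1.69%. The ratio of mRNA to rRNA counts was 10.7, 10.2 and 10.9 in shNC 1 to 3 and 10.2, 9.64 and 11.3 in shATGL 1 to 3. The lowest and the highest of these ratios both belong to shATGL libraries, so the group means of 10.6 ± 0.338 and 10.4 ± 0.840 (SD, n = 3) differed by less than the spread between replicates. Their difference was -0.23, and it was -0.69 without shATGL 3 and 0.13 without shATGL 2. The ratio of mRNA to tRNA counts lay between 53.5 and 56.0. How far rRNA was removed or missed by the library preparation is not given in the sources used here, so these ratios describe the libraries and not the cells.

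The level of each gene was then compared per length, as counts per kilobase of gene per 1000000 counts. Complex IV, cytochrome c oxidase, holds the 2 highest mRNAs. MT-CO1, its catalytic subunit, had a level of 11526 ± 1468 (SD, n = 6) and MT-CO3 of 9574 ± 949 (SD, n = 6), and MT-CO1 was above MT-CO3 in 6 of 6 libraries. MT-CO2, which carries the copper site that accepts electrons from cytochrome c, had 6770 ± 712 (SD, n = 6). Its mean lay below those of both ATP synthase mRNAs and of MT-ND4. The level of MT-CO1 relative to MT-CO3 was 1.05 in shATGL 2 and between 1.2 and 1.29 in the other 5 libraries.

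The ATP synthase mRNAs came next after MT-CO3, with MT-ATP6 at 8650 ± 943 and MT-ATP8 at 7943 ± 957 (SD, n = 6). They are made as 1 shared transcript, and the ratio of MT-ATP8 to MT-ATP6 per kilobase was 0.917 ± 0.0331 (SD, n = 6). MT-CYB, the only complex III subunit of this genome, had a level of 3274 ± 311 (SD, n = 6).

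The 7 complex I mRNAs, subunits of NADH dehydrogenase, spanned the widest range. MT-ND4 was highest at 7777 ± 602, followed by MT-ND4L at 5052 ± 546 and MT-ND1 at 4331 ± 274 (SD, n = 6). MT-ND2 at 2418 ± 317, MT-ND5 at 2213 ± 269 and MT-ND6 at 2051 ± 197 (SD, n = 6) had overlapping ranges. MT-ND6 is the only mRNA of the minus strand. MT-ND3 was the lowest mRNA, at 538 ± 38.4 (SD, n = 6), and its highest library lay below the lowest of every other mRNA. MT-ND4 exceeded MT-ND3 per kilobase by a factor of 14.5 ± 0.680 (SD, n = 6). Except for these gaps below MT-ND6, between MT-CO2 and MT-ND4L and between MT-ND1 and MT-CYB, neighbours in the order of the mRNAs overlapped across the 6 libraries.

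The rRNAs MT-RNR2 (16S, of the large ribosomal subunit) and MT-RNR1 (12S, of the small subunit) had levels of 3661 ± 240 and 540 ± 42.8 (SD, n = 6). MT-RNR2 was therefore 6.79 ± 0.190 (SD, n = 6) times MT-RNR1 per kilobase, with values between 6.49 and 7.03. The ribosome holds 1 molecule of each, and this ratio was almost the same in every library of either group. Per kilobase, MT-RNR2 lay between MT-ND1 and MT-CYB, so the rRNAs were not the most abundant mitochondrial RNAs in these libraries.

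The tRNAs covered the widest span of levels. The highest 4 were the minus-strand cluster whose sequences are given above: MT-TY (tyrosine) at 3881 ± 475, MT-TN (asparagine) at 3581 ± 397, MT-TC (cysteine) at 3250 ± 370 and MT-TA (alanine) at 2166 ± 239 (SD, n = 6). MT-TW (tryptophan), which lies next to MT-TA on the plus strand, was the lowest of all 37 genes at 22.5 ± 3.19 (SD, n = 6), with between 88 and 128 counts per library. MT-TN exceeded it per kilobase by a factor of 160.2 ± 10.5 (SD, n = 6).

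After this cluster came MT-TS1 (a serine tRNA) at 1192 ± 107 and MT-TL1 (a leucine tRNA) at 1068 ± 82.8 (SD, n = 6). The next were MT-TE at 422 ± 31.1, MT-TT at 367 ± 38.8, MT-TP at 306 ± 26.7 and MT-TG at 158 ± 19.0 (SD, n = 6), the tRNAs for glutamate, threonine, proline and glycine. MT-TH, MT-TR, MT-TD, MT-TS2, MT-TV, MT-TL2 and MT-TF lay between 77.7 and 114 on average, and their order changed between libraries. MT-TK, MT-TI, MT-TM and MT-TQ, for lysine, isoleucine, methionine and glutamine, lay between 33.4 and 50.6. The median level was 1679 over the 8 minus-strand tRNAs (range 33.4 to 3881) and 101 over the 14 plus-strand tRNAs (range 22.5 to 1068). The inserts stated for sequencing are longer than a tRNA gene, and counts of a mature tRNA, of a precursor and, on either strand, of a neighbour cannot be told apart here.

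Nuclear copies of mitochondrial sequence can take or give reads. Among 404 genes with symbols of such copies, 7 had at least 100 counts in a library, 6 of them on chromosome 1. MTND2P28 (chr1:629640-630683, 98.4% identical to MT-ND2) had counts equal to 0.480 ± 0.0098 (SD, n = 6) of those of MT-ND2. MTATP6P1 (chr1:633696-634376, 98.5% identical to MT-ATP6) had 0.173 ± 0.00714 (SD, n = 6) of the counts of MT-ATP6, and MTCO1P12 (chr1:631074-632616, 98.6% identical to MT-CO1) had 0.0181 ± 0.000858 (SD, n = 6) of those of MT-CO1. How reads that match both a gene and its copy were counted is not given. The levels of MT-ND2 and MT-ATP6 above are therefore uncertain, and these fractions are no upper limit. The log2 fold change of MTND2P28 in shATGL against shNC was -0.35 (SE 0.09, adjusted p = 0.392, edgeR), beside -0.33 for MT-ND2. MTCO2P12, MTCO3P12, MTND1P23 and MTND4P12 had counts of at most 0.0763% of those of their mitochondrial gene.

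Comparing shATGL with shNC asks whether the mitochondrial transcripts differ when an shRNA against a lipid-releasing enzyme is present. None of the 37 genes passed both thresholds, an adjusted p under 0.05 and a fold change of 2 or more (edgeR's quasi-likelihood test, Benjamini-Hochberg over 19149 genes; 0.00522% of all genes tested passed), and none passed the adjusted p alone, for which the smallest value was 0.392. The log2 fold change was negative for 36 of 37, against 48.1% of all genes, with a median of -0.22 against 0.01 for all genes. At an unadjusted p under 0.05, 14 were lower, against 5.94% of all genes tested, and none was higher, against 5.77%. DESeq2 gave the same counts, 0 lower at the adjusted p (0.0438% of all genes) and 14 at the unadjusted p (3.14%). The DESeq2 shares are over 31959 genes, without the filter that left 19149 for edgeR. They are therefore not directly comparable with the edgeR shares. In 16 of 37 genes every shATGL library was below every shNC library, against 9.38% of all genes.

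Leaving out shATGL 3, 20 of 37 genes were lower at an adjusted p under 0.05, against 6.07% of all genes tested in that fit. With limma voom and quality weights, in which shATGL 3 received the lowest weight at 0.248, 21 were lower, against 5.27%. The 21 held all 20 of the first set, with 11 mRNAs, both rRNAs and 8 tRNAs. Leaving out any other single library kept the number at 0 in edgeR. The median log2 fold change of the 37 genes was -0.31 without shATGL 3, and -0.16 and -0.19 without shATGL 1 and 2. It was -0.24, -0.22 and -0.16 without shNC 1 to 3. The fit without shATGL 3 and the voom fit also called more genes in the whole table than edgeR did with all libraries. Genes lower at the adjusted p numbered 1211 without shATGL 3, 1009 with voom and 1 in edgeR with all libraries. Why the number differs between settings was not tested.

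Among the complex I mRNAs, MT-ND2 had the largest difference of any mRNA. Its values were 2745, 2621 and 3088 CPM in shNC 1 to 3 and 2092, 2071 and 2550 CPM in shATGL 1 to 3. Every shATGL library was below every shNC library, and the log2 fold change was -0.33 (SE 0.10, adjusted p = 0.392, edgeR), which put shATGL at 79.4% of shNC (95% confidence interval 67.7% to 93.1%). Without shATGL 3 it was -0.44 (adjusted p = 0.0084, edgeR). Leaving out shATGL 1 or shATGL 2 instead gave -0.29 and -0.28 (adjusted p = 0.822 and 0.837, edgeR). MT-ND1 had the smallest difference, with 4124, 4234 and 4677 CPM in shNC 1 to 3 and 3629, 3947 and 4274 CPM in shATGL 1 to 3. These groups overlapped, with a log2 fold change of -0.14 (SE 0.08, adjusted p = 0.507, edgeR) and of -0.20 (adjusted p = 0.0732, edgeR) without shATGL 3, and MT-ND1 was 1 of the 2 mRNAs outside both sets of the preceding comparison, the other being MT-ND3.

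MT-ND3 had 193, 187 and 219 CPM in shNC 1 to 3 and 174, 168 and 179 CPM in shATGL 1 to 3. Its groups did not overlap, and the log2 fold change was -0.20 (SE 0.07, adjusted p = 0.399, edgeR). The long mRNA MT-ND5 showed the library shATGL 3 most clearly, with 4110, 4148 and 4569 CPM in shNC 1 to 3 and 3223, 3497 and 4571 CPM in shATGL 1 to 3. Here shATGL 3 was the highest of all 6 libraries. The log2 fold changes of MT-ND4L, MT-ND6, MT-ND5 and MT-ND4 were -0.26, -0.22, -0.18 and -0.18, and none of these groups separated. Without shATGL 3 they were -0.37, -0.31, -0.35 and -0.25, with adjusted p between 0.00683 and 0.0366 in edgeR.

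MT-CYB, of complex III, had 3942, 3809 and 4370 CPM in shNC 1 to 3 and 3146, 3332 and 3870 CPM in shATGL 1 to 3, a log2 fold change of -0.23 (SE 0.09, adjusted p = 0.405, edgeR). Its highest shATGL library lay above its lowest shNC library, and without shATGL 3 the value was -0.32 (adjusted p = 0.0176, edgeR). In complex IV, MT-CO1 was measured at 19017, 18388 and 20925 CPM in shNC 1 to 3 and at 15355, 13960 and 19306 CPM in shATGL 1 to 3. Its shATGL values were the most spread of the complex, and the log2 fold change was -0.26 (SE 0.12, adjusted p = 0.434, edgeR) with all libraries and -0.41 (adjusted p = 0.0083, edgeR) without shATGL 3.

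MT-CO3 separated the groups, with 7930, 7709 and 8885 CPM in shNC 1 to 3 and 6252, 6744 and 7637 CPM in shATGL 1 to 3. Its log2 fold change was -0.25 (SE 0.09, adjusted p = 0.392, edgeR). The gap between the groups was narrow, since shATGL 3 lay just under shNC 2, and the value without that library was -0.33 (adjusted p = 0.0182, edgeR). MT-CO2 had 4837, 4620 and 5664 CPM in shNC 1 to 3 and 3936, 4144 and 4661 CPM in shATGL 1 to 3, and its log2 fold change was -0.25 with overlapping groups and -0.32 (adjusted p = 0.0395, edgeR) without shATGL 3. For ATP synthase, MT-ATP6 had a log2 fold change of -0.26 and MT-ATP8 of -0.24, with shATGL 3 inside the shNC range for both genes. Without it they had -0.37 and -0.38 (adjusted p = 0.0107 and 0.0126, edgeR).

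Within the mRNAs the composition was largely kept. MT-CO1 made up 27.7%, 27.5% and 27.3% of the mRNA counts in shNC 1 to 3 and 27.8%, 24.6% and 28.1% in shATGL 1 to 3, so shATGL 2 alone was low. MT-ND2 made up 3.99%, 3.91% and 4.03% in shNC 1 to 3 and 3.78%, 3.65% and 3.71% in shATGL 1 to 3, with no overlap. MT-ND1 went the other way, at 6.0%, 6.32% and 6.11% against 6.56%, 6.96% and 6.22%, with overlapping groups. Exact two-sided permutation tests of these 3 shares over libraries gave p = 0.1 for MT-ND2, 0.2 for MT-ND1 and 1 for MT-CO1, unadjusted, and 0.1 is the smallest value that 3 against 3 allows. The value for MT-ND2 follows from the lack of overlap. MT-ND2 and MT-ND1 had the largest and the smallest difference of the mRNAs in these same libraries, so these p-values are descriptive only.

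Of the rRNAs, MT-RNR2 had 5891, 6011 and 6449 CPM in shNC 1 to 3 and 4990, 5406 and 5563 CPM in shATGL 1 to 3. Its groups did not overlap, and its log2 fold change of -0.20 had the smallest SE of all members, 0.06 (adjusted p = 0.392, edgeR). Without shATGL 3 it was -0.24 (adjusted p = 0.0261, edgeR). Leaving out shNC 3 or shATGL 1 instead gave -0.16 for each (adjusted p = 0.814 and 0.822, edgeR). MT-RNR1 had 529, 537 and 592 CPM in shNC 1 to 3 and 442, 471 and 524 CPM in shATGL 1 to 3. The groups separated by a narrow gap, with a log2 fold change of -0.21 (SE 0.08, adjusted p = 0.401, edgeR), and without shATGL 3 it was -0.28 (adjusted p = 0.0252, edgeR).

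The tRNAs had a median log2 fold change of -0.21, with 21 of 22 below 0, against 48.1% of all genes tested. At an unadjusted p under 0.05, 4 were lower, against 5.94% of all genes tested, and none passed the adjusted p in edgeR with all libraries. The 4 were MT-TT, MT-TK, MT-TL1 and MT-TP. MT-TT had 26.0, 25.7 and 29 CPM in shNC 1 to 3 and 20.8, 21.0 and 23.4 CPM in shATGL 1 to 3. No shATGL library reached a shNC library, and the log2 fold change was -0.31 (SE 0.09, adjusted p = 0.392, edgeR), or -0.36 (adjusted p = 0.0297, edgeR) without shATGL 3. MT-TK had the largest difference, -0.41 (SE 0.17, adjusted p = 0.414, edgeR), but between 178 and 338 counts only and 4.67, 4.17 and 3.34 CPM in shNC 1 to 3 against 3.25, 2.93 and 2.96 CPM in shATGL 1 to 3.

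The tRNAs of the minus-strand cluster had the library pattern of most mRNAs. MT-TN had 272, 268 and 299 CPM in shNC 1 to 3 and 217, 225 and 291 CPM in shATGL 1 to 3. Again shATGL 3 lay within the shNC range, and the log2 fold changes of MT-TY, MT-TC, MT-TA and MT-TN were -0.24, -0.21, -0.20 and -0.19 (adjusted p between 0.474 and 0.524, edgeR). Without shATGL 3 they were -0.39, -0.36, -0.34 and -0.34 (adjusted p between 0.00659 and 0.0144, edgeR). MT-TL1, which follows MT-RNR2 in the genome, had 82.7, 83.9 and 92.3 CPM in shNC 1 to 3 and 69.2, 73.4 and 80.1 CPM in shATGL 1 to 3. Its groups did not overlap, and its log2 fold change was -0.22, beside -0.20 for MT-RNR2. It was -0.28 (adjusted p = 0.0312, edgeR) without shATGL 3.

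Glycine and arginine tRNAs were the exceptions. MT-TG, between MT-CO3 and MT-ND3, had 9.04, 10.4 and 11.8 CPM in shNC 1 to 3 and 12.5, 10.8 and 10.2 CPM in shATGL 1 to 3, a log2 fold change of 0.10 (SE 0.14, adjusted p = 0.792, edgeR). It was the only member with a positive value, and its groups overlapped. The value turned to -0.36 once trends with gene length and GC content, fitted on nuclear genes only, were corrected. MT-TR, between MT-ND3 and MT-ND4L, had 6.50, 7.04 and 8.46 CPM in shNC 1 to 3 and 7.62, 6.99 and 7.36 CPM in shATGL 1 to 3. Its log2 fold change was -0.0028 (SE 0.134, adjusted p = 0.994, edgeR), with a 95% confidence interval of -0.31 to 0.31.

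Each of the remaining tRNAs had a negative log2 fold change. MT-TM, MT-TV, MT-TQ and MT-TD had -0.36, -0.27, -0.27 and -0.26, with groups that did not overlap. MT-TP, MT-TH, MT-TE and MT-TI also separated, at -0.25, -0.22, -0.20 and -0.13. Of these, MT-TE passed the adjusted p without shATGL 3, at -0.28 (adjusted p = 0.0408, edgeR), and MT-TP passed it with voom, at -0.28 (adjusted p = 0.0467). In the fit without shATGL 3 the values of MT-TV and MT-TW were -0.42 and -0.33 (adjusted p = 0.0728 and 0.405, edgeR). MT-TS1, MT-TS2, MT-TW, MT-TL2 and MT-TF overlapped, at -0.21, -0.17, -0.15, -0.15 and -0.12.

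**Figure D1:**
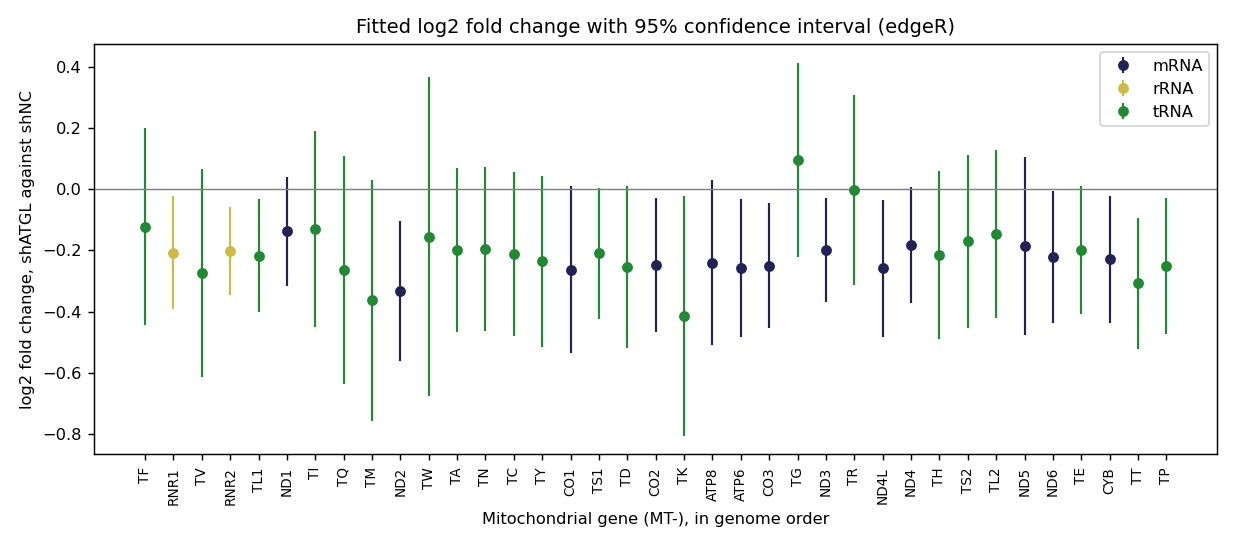
Log2 fold change of each gene in shATGL against shNC, in genome order, with bars for the 95% confidence interval from edgeR and colour for the gene class. MT-TG at 0.10 is the only point above 0, and MT-TR lies at 0. The interval of MT-RNR2 is the narrowest, and low tRNAs such as MT-TK and MT-TM have wide ones.

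The libraries shared these differences unevenly. Relative to the shNC mean, the median log2 value over the 37 genes was -0.04, -0.06 and 0.10 in shNC 1 to 3 and -0.32, -0.28 and -0.06 in shATGL 1 to 3. In shATGL 1, 35 of 37 genes were below all shNC libraries, in shATGL 2, 34 were, and in shATGL 3, 16 were. Over all genes tested these shares were 32.7%, 32.8% and 29.4%. Of the shATGL libraries, shATGL 3 was the highest for 31 members, against 42.2% of all genes. Of all libraries, shNC 3 was the highest for 30 members, against 22.2% of all genes. The rRNAs differed less between shATGL libraries than the mRNAs did, with medians of -0.31, -0.21 and -0.11 against -0.36, -0.28 and -0.06.

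Other values of the libraries were on average higher in shATGL, where the mitochondrial genes were lower. MALAT1, a nuclear-retained RNA, took 0.00813%, 0.00992% and 0.00672% of the counts in shNC 1 to 3 and 0.0185%, 0.0193% and 0.00990% in shATGL 1 to 3, and its log2 fold change was 0.89 (adjusted p = 0.392, edgeR). NEAT1, another nuclear RNA, took 0.00934%, 0.0104% and 0.00808% in shNC 1 to 3 and 0.0166%, 0.0158% and 0.00975% in shATGL 1 to 3. The mean transcript length of nuclear genes, weighted by counts, was 3872, 3901 and 3761 bases in shNC 1 to 3 and 4069, 4079 and 3897 bases in shATGL 1 to 3. In all 3 measures shATGL 3 was nearer to shNC than the other shATGL libraries were, as it was for the mitochondrial genes. Their part in the mitochondrial differences was not tested. Over 18566 genes with a known length, log2 fold change and length had a Spearman's rho of 0.218, as a description across genes that share these 6 libraries, and over the 13 mitochondrial mRNAs the rho was 0.14. With trends in length and GC content corrected, the median of the 13 mRNAs was -0.25 and that of all genes was -0.05. The median of the tRNAs went from -0.21 to -0.47. These trends were fitted on nuclear genes only, and how well they hold for genes as short as the tRNAs was not tested.

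The nuclear genes that copy, transcribe, process and translate the mitochondrial genome were split between the directions. Of 66 genes listed, 65 were tested, with 33 lower, 32 higher and a median log2 fold change of -0.02. At an unadjusted p under 0.05, 4 were lower and 2 higher, beside 5.94% and 5.77% of all genes tested, and none passed the adjusted p in edgeR. The 6 transcription genes were split evenly: POLRMT, the RNA polymerase, TFB2M and MTERF2 had -0.06, -0.07 and -0.05, while TFAM, TEFM and MTERF1 had 0.02, 0.07 and 0.16. None of these passed an unadjusted p under 0.05.

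PRORP, the nuclease subunit of mitochondrial RNase P that cuts the 5′ ends of tRNAs, had the smallest p of these genes and was higher in shATGL. It had 15.8, 17.3 and 19.2 CPM in shNC 1 to 3 and 23.6, 29.1 and 26.6 CPM in shATGL 1 to 3. The groups did not overlap, and the log2 fold change was 0.60 (SE 0.12, adjusted p = 0.392, edgeR). Its adjusted p was 0.0112 with DESeq2, 0.025 with voom and 0.0206 in edgeR without shATGL 3, and it lay between 0.0922 with the replicate block and 0.837 without shATGL 2 in the other alternatives. After the length and GC correction its log2 fold change was 0.45 (adjusted p = 0.3002, edgeR). A gene that overlaps it in the annotation could share its reads. Of the other subunits of RNase P, HSD17B10 had -0.23 and TRMT10C had 0.10 (adjusted p = 0.411 and 0.860, edgeR). SLIRP, a partner of LRPPRC that stabilises mitochondrial mRNAs, had -0.30, SSBP1, the single-strand DNA-binding protein of mitochondria, had -0.20, and ERAL1, which assists assembly of the small ribosomal subunit, had -0.19 (adjusted p between 0.392 and 0.410, edgeR).

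The nuclear-encoded subunits of the same complexes were lower by about as much as the mitochondrial ones. Of 77 genes, 76 had a negative log2 fold change, with a median of -0.26, and 55 were lower at an unadjusted p under 0.05, against 5.94% of all genes tested. None passed the adjusted p with all libraries in edgeR and 2 did in DESeq2, while 51 were lower past it without shATGL 3 (6.07% of all genes) and 51 with voom (5.27%). By complex, the medians of the nuclear and the mitochondrial subunits were -0.24 and -0.20 for complex I, -0.25 and -0.23 for complex III, -0.33 and -0.25 for complex IV, and -0.24 and -0.25 for complex V. Complex II, succinate dehydrogenase, has no mitochondrially encoded subunit, and its 4 genes had a median of -0.21. The smallest p-values belonged to NDUFB8 and NDUFA13 of complex I, UQCRH and UQCRQ of complex III, and ATP5PO of complex V, at -0.39, -0.46, -0.32, -0.33 and -0.27 (adjusted p = 0.392 for each, edgeR).

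NDUFB8 is given as an example, with 105.8, 94.2 and 106.5 CPM in shNC 1 to 3 and 76.6, 75.1 and 82.9 CPM in shATGL 1 to 3. All shATGL libraries were below all shNC libraries, and again shATGL 3 was the nearest to shNC. These lists were chosen with earlier results of the same libraries known, so their counts describe these libraries.

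**Figure D2:**
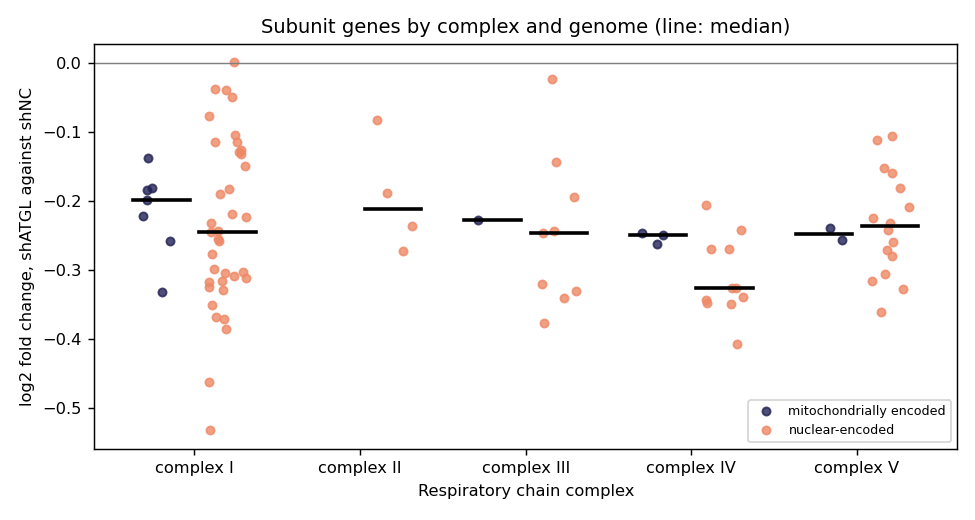
Log2 fold change in shATGL against shNC of the subunit genes of each respiratory complex, dark points for mitochondrially encoded and orange points for nuclear-encoded genes, with lines at the medians and random sideways placement. Nearly all points lie below 0, and the medians of both genomes lie between -0.20 and -0.33 in every complex.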

How the data were processed

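RNA was sequenced from 6 MV4-11 libraries, 3 shNC and 3 shATGL, grouped by the sample labels. The authors deposited raw read counts per gene, without normalization, for 61806 Ensembl genes. FASTP cleaning and paired-end sequencing are stated in the methods. The labels and the methods differ on RNA isolation and library preparation. The submitters' processing notes name the mouse build mm10, although the identifiers are human. The aligner, counter and strand setting are not given in the sources used here. All count columns were mapped to libraries, and no row lacked a gene.

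Names were found for 61757 identifiers and GENCODE 29 positions for 58254. Totals lay between 59674064 and 74808280 counts. The filter was edgeR's filterByExpr, with a minimum count of 10 and a minimum total of 15. It left 19149 genes, and libraries were scaled by TMM. Groups were compared with edgeR 4.0.16's quasi-likelihood test in R 4.3.3, with Benjamini-Hochberg adjustment over all genes tested. The call thresholds were 0.05 for the adjusted p and 2 for the fold change. Shares and ratios of summed counts were given without a test, except the shares of 3 genes within the mRNA counts, which were compared by exact permutation over libraries. Levels per length used annotated gene lengths.

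The mitochondrial genes and the gene lists were chosen with earlier results of these data known. Named genes are every MT- gene with at least 10 counts in each library, PNPLA2, the 5 genes with the smallest unadjusted p of the machinery lists and of the respiratory lists, and nuclear copies with at least 100 counts in a library. Marker genes, all genes of the transcription list, LRPPRC, TRMT10C and the examples are named in addition, some after their values were seen.

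Alternatives were DESeq2 1.42.0 and its size factors, upper-quartile scaling, scaling on nuclear genes, limma 3.58.1 voom with quality weights, other filters, a replicate block, each library left out, other denominators for the shares, and splines with 4 degrees of freedom for trends with length and GC content, which 18566 of the 19149 genes had. The tests were tested on simulated data for shATGL against shNC, with 19149 genes of which 200 were changed by the same fold up or down. edgeR recovered 142 of these with 3 false calls, and 17 of 20 changed mitochondrial genes. DESeq2 recovered 153 with 16 false calls and voom 139 with 2. The simulated fold was larger than the threshold of 2 and than the difference of any member. The recovery therefore does not describe differences of the size seen in the mitochondrial genes.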

Additional observations from a re-analysis of the deposited data

How the results depend on the processing

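Of 555 values for the 37 genes over 15 alternatives, 549 kept their direction. The 6 others belonged to MT-TG, at -0.36 after the length and GC correction, and to MT-TR, at 0.062 with voom, 0.0018 when every library needed 10 counts, 0.0054 with the replicate block and -0.084 to 0.11 with 1 library left out. The number of mitochondrial genes at an adjusted p under 0.05 was 0 in edgeR with all libraries, 21 with voom and quality weights, and 0 to 20 with 1 library left out, 20 being the fit without shATGL 3. The cause of these shifts was not tested. Taking an unadjusted p under 0.05 alone would call 14 genes. This last number was 3 without shATGL 1 (2.5% of all genes tested were lower at that p), 3 without shATGL 2 (2.3%), 4 without shNC 3 (2.25%), 8 without shNC 1 (3.59%), 11 without shNC 2 (3.88%) and 26 without shATGL 3 (14.1%). The median of the members lay between -0.31 and -0.16 with 1 library left out. PNPLA2 lay between -0.024 and 0.033 with 1 library left out, and the value was positive at 0.033 without shNC 3 and 0.018 without shATGL 2. The difference in the ratio of mRNA to rRNA counts was -0.23 with all libraries and -0.69 to 0.13 with 1 left out, positive without shATGL 2. The shares of all 3 classes kept their direction, with -1.19 to -0.57 percentage points for the mRNAs. With the replicate number as a block, 0 mitochondrial genes passed the adjusted p, with a smallest value of 0.0897 in edgeR, and 25 were lower at an unadjusted p under 0.05, where 9.41% of all genes were. Same-numbered libraries had correlations of their deviations of 0.0945, 0.245 and 0.372 over 16627 genes. For every shNC library this was its highest correlation with a shATGL library, while shATGL 1 correlated best with shNC 2 (0.195). The labels do not state a pairing, so the main fit is unpaired and a pairing by number remains possible. With 88 to 128 counts per library, MT-TW sets the limit of depth among the members.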
